A study of Danio rerio with 4 samples.

Results

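MHC class I molecules show peptides from inside a cell to cytotoxic lymphocytes. Proteins are cut by the proteasome, in which interferon-inducible catalytic subunits can replace the constitutive ones, and the peptides are pumped into the endoplasmic reticulum by the TAP transporter. There tapasin helps load them onto a class I heavy chain paired with beta-2-microglobulin, and the loaded complex moves to the cell surface. The genes described here are those members of a list of 10 such genes that the count table holds under exactly that name, 7 of 14781 genes: mhc1uba, b2m, abcb3l1, tapbp, psmb8a, psmb9a and psmb12. The names tap1, tap2a and psmb13a are not row names of the table. A RefSeq gene table of the assembly GRCz12tu lists abcb3l1 as an older name of tap2a, and both psmb10 and psmb12 as older names of psmb13a, so abcb3l1 stands for the TAP2 subunit below and psmb13a has no row that can be matched to it alone.

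The data are messenger RNA counts from the whole gut of 4 adult zebrafish, 2 homozygous and 2 heterozygous for the st95 mutation of irf8, a transcription factor gene needed for macrophage development. The design text speaks of separate animals, no treatment was given, all 4 fish carry at least 1 mutant allele, and no wild-type fish enters the comparison. Library totals were 6389553 and 9351100 counts in the homozygous fish and 6350840 and 10391963 counts in the heterozygous fish (replicates 1 and 2 of each). All 7 genes passed the filter on low counts. CPM below are TMM-normalised read counts relative to library size, RPKM are the same per kilobase of exon, and log2 fold changes are homozygous over heterozygous with their standard error (SE). The gut identity of the libraries was checked with 21 enterocyte genes, which took 8.19% and 10.6% of the counts of the homozygous libraries and 11.6% and 3.83% of those of the heterozygous libraries. A list of pancreas genes took 4.93% and 0.536% of counts in the homozygous libraries and 1.66% and 36.9% in the heterozygous libraries, so heterozygous replicate 2 stands apart.

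The 4 members outside the proteasome, mhc1uba, b2m, abcb3l1 and tapbp, were more abundant in both homozygous guts than in either heterozygous gut. The 3 proteasome genes among the 7, psmb8a, psmb9a and psmb12, were not. The heavy chain gene mhc1uba was 4.12-fold higher, the TAP subunit gene abcb3l1 4.42-fold, the tapasin gene tapbp 3.33-fold and the beta-2-microglobulin gene b2m 2.62-fold. psmb8a, psmb9a and psmb12 had overlapping libraries, with log2 fold changes of 0.26 ± 0.44, 0.46 ± 0.46 and -0.08 ± 0.43 (SE). The overlap of psmb9a was narrow, at 51.3 CPM in homozygous replicate 2 and 51.9 CPM in heterozygous replicate 1. edgeR (quasi-likelihood test, adjusted over all 9701 tested genes by the Benjamini-Hochberg method) called 0 of the 7 genes, where it called 0% of all tested genes. At an unadjusted p under 0.05 there were 3 members, abcb3l1, mhc1uba and tapbp, where 6.47% of all tested genes were past that level. All 3 were higher, as were 3.65% of all tested genes, and 0 members were lower, against 2.82% of all tested genes. A log2 fold change above 1 was seen for 4 of the 7 genes and for 9.57% of all tested genes. Both homozygous libraries lay above both heterozygous libraries for 4 of the 7 genes, against 19.9% of all tested genes, and below for 0, against 19.3%. The median log2 fold change of the 7 was 1.39, and that of all tested genes was -0.05. DESeq2's Wald test called 1 member, abcb3l1, where it called 0.742% of the 7820 genes to which it gave an adjusted p (0.422% higher and 0.32% lower).

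**Figure D1:**
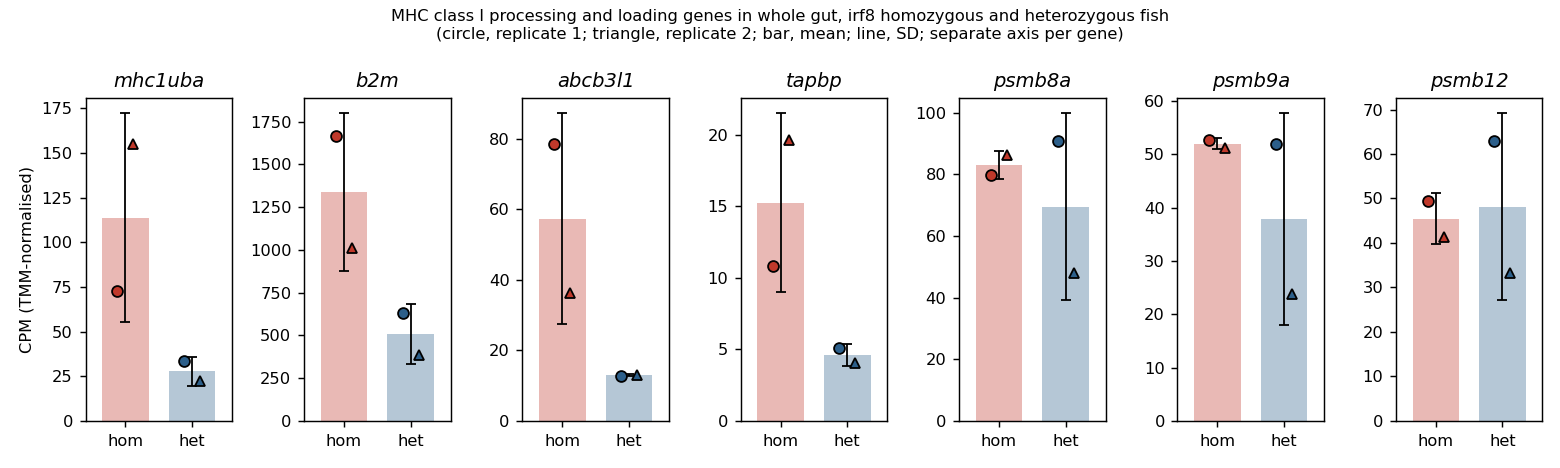
TMM-normalised CPM of the 7 genes in the homozygous (hom) and heterozygous (het) guts, with a separate axis from 0 for each gene; circles are replicate 1, triangles replicate 2, bars the mean and lines the SD of 2 libraries. The groups are apart for mhc1uba, b2m, abcb3l1 and tapbp and overlap for psmb8a, psmb9a and psmb12.

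mhc1uba encodes a classical class I heavy chain, the polymorphic chain whose groove holds the peptide. It lies on chromosome 19 from 7153929 to 7182175 on the plus strand of danRer10, with 8 exons. It had 490 and 1681 counts in the homozygous libraries, against 195 and 202 in the heterozygous libraries. In CPM these were 72.6 and 155 in homozygotes and 33.3 and 22.1 in heterozygotes. Homozygous replicate 2 was the highest library and the lower homozygous library was still above both heterozygous ones. The means were 114 ± 58.4 CPM in homozygotes and 27.7 ± 7.91 CPM in heterozygotes (SD, n = 2 each), which is 2.04 ± 0.52 on the log2 scale (SE, 95% interval 0.74 to 3.34). Without homozygous replicate 2 the log2 value was 1.39. The edgeR adjusted p was 0.699 and the DESeq2 adjusted p was 0.0634.

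b2m encodes beta-2-microglobulin, the invariant light chain that every classical class I molecule needs. It is the 1 member outside chromosome 19, on chromosome 4 from 12794547 to 12796644 on the minus strand. It was by far the most abundant member, with 1664 and 1012 CPM in homozygotes and 634 and 385 CPM in heterozygotes. Homozygous replicate 1 was highest here, not replicate 2, and the groups did not overlap. The means were 1338 ± 461 CPM in homozygotes and 510 ± 176 CPM in heterozygotes (SD, n = 2 each), and the log2 ratio was 1.39 ± 0.61 (SE), with a 95% interval of -0.13 to 2.91 that includes 0. The edgeR adjusted p was 0.699 and the DESeq2 adjusted p was 0.277.

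abcb3l1 encodes the TAP2 subunit of the peptide pump. It is on chromosome 19 from 7205476 to 7212442 on the plus strand, with 11 exons. It had 530 and 393 counts in the homozygous libraries and 75 and 120 counts in the heterozygous libraries. In CPM these were 78.5 and 36.3 in homozygotes and 12.8 and 13.1 in heterozygotes. Homozygous replicate 1 was highest, the groups did not overlap, and the heterozygous libraries nearly coincided. The means were 57.4 ± 29.9 CPM in homozygotes and 12.97 ± 0.230 CPM in heterozygotes (SD, n = 2 each). The log2 fold change was 2.14 ± 0.48 (SE, 95% interval 0.95 to 3.33), the highest of the 7, and was 1.51 without homozygous replicate 1. The adjusted p was 0.699 by edgeR and 0.0387 by DESeq2. Over all alternatives tried its adjusted p ranged from 0.0387 to 0.999.

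tapbp encodes tapasin, which bridges the TAP pump and the empty heavy chain. The table places it on chromosome 19 from 7119768 to 7151489 on the minus strand, with 7 exons in 2 clusters. It was the least abundant member, with 73 and 213 counts in homozygotes and 30 and 37 counts in heterozygotes. In CPM these were 10.8 and 19.7 in homozygotes and 5.12 and 4.05 in heterozygotes, so the groups did not overlap and homozygous replicate 2 was highest. On the log2 scale the difference was 1.74 ± 0.49 (SE, 95% interval 0.52 to 2.95). The adjusted p was 0.699 by edgeR and 0.277 by DESeq2. Of its 1544 exon bases, 803 in 3 exons (52.0%) are also assigned to si:ch211-51f10.1, a name that the RefSeq table, like the name tapbp itself, lists among older names of the tapasin gene tapbp.2. It also lists tapbp as an older name of tapbp.1. The counting command in the file header sets no option to count a read pair for both genes, so read pairs in the shared bases alone go to neither gene, and the level per kilobase of tapbp is a lower limit. The overlapping gene itself had 6 and 16 counts in homozygotes and 6 and 2 in heterozygotes, too few to be tested. None of the other 6 members shares exon bases with another gene on its strand.

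psmb8a, psmb9a and psmb12 encode catalytic-type beta subunits of the proteasome. In mammals the products of PSMB8 and PSMB9 are among the inducible subunits, and replace those of PSMB5 and PSMB6. psmb12 is grouped with the inducible subunits here by its place in the list, and whether it is inducible was not tested. psmb10, a neighbouring proteasome gene that is not a member, had both homozygous libraries above both heterozygous ones, as had 19.9% of all tested genes. Its log2 fold change was 0.44 ± 0.41 (SE). psmb8a (chromosome 19, 7186915 to 7191655, minus strand, 6 exons) was at 79.8 and 86.2 CPM in homozygotes and 91.0 and 48.1 CPM in heterozygotes. psmb9a (7201509 to 7203448, plus strand, 6 exons) was at 52.7 and 51.3 CPM in homozygotes and 51.9 and 23.7 CPM in heterozygotes. psmb12 (7196313 to 7200526, plus strand, 6 exons) was at 49.5 and 41.4 CPM in homozygotes and 63.0 and 33.3 CPM in heterozygotes. For all 3 genes heterozygous replicate 2 was the lowest library and heterozygous replicate 1 lay near or above the homozygous libraries. The 95% intervals of the log2 fold change were -0.84 to 1.35 for psmb8a, -0.69 to 1.61 for psmb9a and -1.15 to 0.98 for psmb12, so a doubling of psmb8a or psmb9a is not outside them. Without heterozygous replicate 2 the log2 fold change turned to -0.14 for psmb8a and to -0.0037 for psmb9a, and without heterozygous replicate 1 that of psmb12 turned to 0.48.

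**Figure D2:**
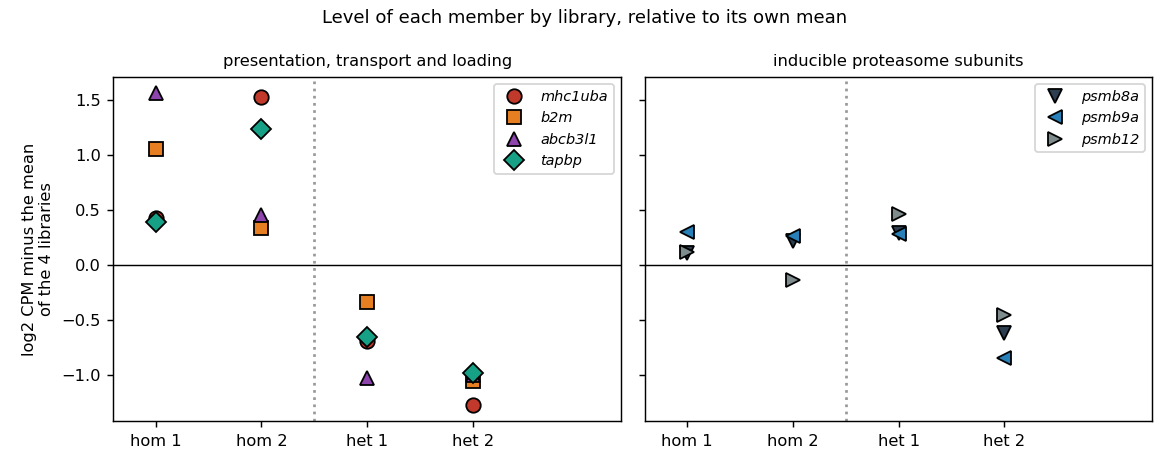
Log2 CPM of each gene minus its own mean over the 4 libraries, for the 2 homozygous (hom) and 2 heterozygous (het) guts, with 1 symbol per gene. On the left, all 4 genes are above their mean in both homozygous libraries and below it in both heterozygous libraries; on the right, the 3 proteasome genes are lowest in heterozygous replicate 2 only.

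The 4 separated genes did not follow 1 profile within the homozygous fish. mhc1uba and tapbp were 2.14-fold and 1.82-fold higher in homozygous replicate 2 than in replicate 1, and abcb3l1 and b2m were 2.16-fold and 1.64-fold higher in replicate 1 than in replicate 2. Per kilobase, the ratio of mhc1uba to b2m was 0.0262 and 0.0921 in homozygotes and 0.0315 and 0.0344 in heterozygotes. Homozygous replicate 2 was the 1 library in which this heavy chain was high relative to its light chain.

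Ordered by mean RPKM over the 4 libraries, b2m came first at 807 RPKM, followed by psmb8a (64.3), psmb12 (54.8), psmb9a (40.9), mhc1uba (37.1), abcb3l1 (16.1) and tapbp (6.42). b2m ranked 169th of the 14781 genes on this scale. The ranges over the 4 libraries overlapped for each neighbouring pair in the order below b2m, and b2m was above all the others in every library. Within each library these pairs kept their order, except that mhc1uba was above psmb9a in homozygous replicate 2. In the homozygous libraries mhc1uba, at 38.0 and 81.3 RPKM, overlapped psmb8a, at 67.2 and 72.6 RPKM. In the heterozygous libraries it was lower, at 17.5 and 11.6 RPKM, against 76.6 and 40.6 RPKM for psmb8a. Together the 7 genes took 0.212% (exact Clopper-Pearson 95% interval 0.209 to 0.216) and 0.162% (0.160 to 0.165) of counts in the homozygous libraries. In the heterozygous libraries they took 0.0822% (0.0800 to 0.0845) and 0.0466% (0.0453 to 0.0479). b2m alone made up 82.9% and 72.2% of these counts in homozygotes and 71.1% and 72.7% in heterozygotes. The intervals cover counting error only. The shares of the 7 genes together are of whole libraries, so a large share of other genes lowers them. Pancreas genes took 4.93% and 0.536% of counts in the homozygous libraries and 1.66% and 36.9% in the heterozygous libraries.

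Ratios within a library do not depend on how libraries are scaled. Relative to the summed RPKM of the 3 inducible proteasome genes, b2m was at 8.39 and 5.26 in homozygotes and at 2.80 and 3.33 in heterozygotes. The same ratio for abcb3l1 was 0.208 and 0.0992 in homozygotes and 0.0297 and 0.0596 in heterozygotes. For mhc1uba it was 0.220 and 0.485 in homozygotes and 0.0883 and 0.115 in heterozygotes, and for tapbp 0.0404 and 0.0758 in homozygotes and 0.0168 and 0.0259 in heterozygotes. All 4 genes were thus higher relative to the inducible subunits in both homozygous libraries, by 2.18-fold for b2m to 3.41-fold for abcb3l1. The share of all tested genes that separate over this denominator was not worked out.

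Ratios of the inducible subunit genes to constitutive ones, taken within each library, separated the groups. psmb8a was paired with psmb5 and psmb9a with psmb6, and psmb12 with psmb7, a pairing that the files do not give. The ratio of psmb8a to psmb5, per kilobase, was 1.15 and 1.69 in homozygotes and 0.735 and 0.715 in heterozygotes. psmb9a to psmb6 was 0.460 and 0.570 in homozygotes and 0.327 and 0.208 in heterozygotes. psmb12 to psmb7 was 1.56 and 1.44 in homozygotes and 0.780 and 0.632 in heterozygotes. The ratios were 1.92-fold, 1.96-fold and 2.13-fold higher in homozygotes, and the groups did not overlap in any of them. How many of all tested genes would separate over the same denominators was not counted. An exact two-sided permutation test gave p = 0.333 for each, which is the smallest value that 2 against 2 libraries allow. With the sum of psmb5, psmb6 and psmb7 as the denominator, the log2 difference of psmb12 was 0.62, against 1.09 with psmb7. The denominators had negative log2 fold changes. psmb12 itself was at -0.08 ± 0.43 with overlapping libraries, so its ratio separated without a rise of psmb12. psmb7 was at 38.8 and 35.1 CPM in homozygotes and 98.5 and 64.2 CPM in heterozygotes (log2 fold change -1.14 ± 0.39, SE). psmb5 and psmb6 were at -0.67 ± 0.46 and -0.42 ± 0.39. Of 17 tested genes of the constitutive core proteasome and its assembly factor, 16 had a negative and 1 a positive log2 fold change, with a median of -0.45, where 46.7% of all tested genes were positive. Both homozygous libraries were below both heterozygous ones for 12 of the 17, against 19.3% of all tested genes, and above for 0, against 19.9%. The 3 with the smallest unadjusted p were psmb7, psma6a, a structural subunit gene (-0.89 ± 0.35), and pomp, the assembly factor gene (-0.78 ± 0.42). edgeR called 0.

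**Figure D3:**
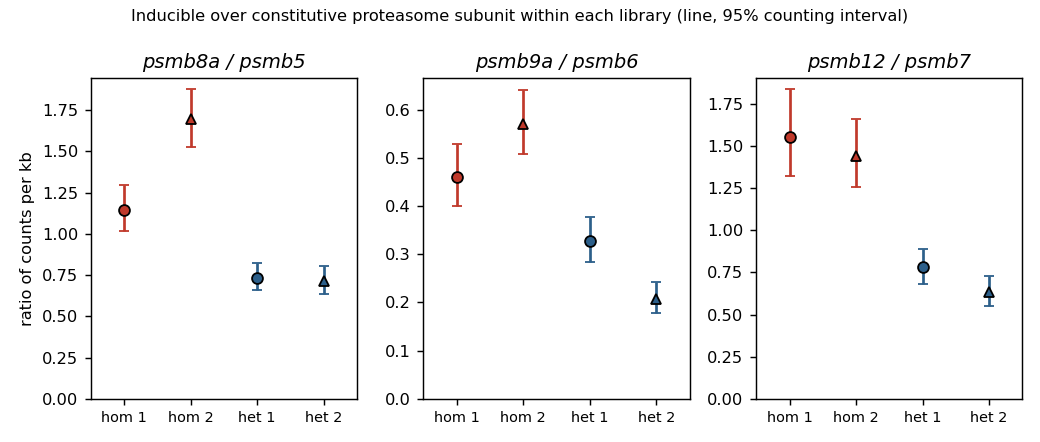
Ratio of counts per kilobase of psmb8a to psmb5, psmb9a to psmb6 and psmb12 to psmb7 in the 2 homozygous (hom) and 2 heterozygous (het) libraries, on axes from 0, with 95% counting intervals. The pairing of psmb12 with psmb7 is not given by the files. In all 3 panels both homozygous libraries are above both heterozygous libraries.

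Other genes of the class I pathway were read from a list of 56 names, of which 22 further genes were found and 18 tested. edgeR called 0 of them, 10 had a positive and 8 a negative log2 fold change, and the median was 0.40. Both homozygous libraries were above both heterozygous ones for 9 of the 18, against 19.9% of all tested genes, and below for 4, against 19.3%. The other heavy chain genes were mostly on the higher side. mhc1uka, a second class I gene of the chromosome 19 cluster, was at 275 and 241 CPM in homozygotes and 95.2 and 69.1 CPM in heterozygotes (1.65 ± 0.43 on the log2 scale, SE). Its adjusted p was 0.699 by edgeR and 0.0395 by DESeq2. It was the 1 gene of this list that DESeq2 called, where it called 0.742% of all genes given an adjusted p. Its ratio to b2m per kilobase was 0.151 and 0.217 in homozygotes and 0.137 and 0.164 in heterozygotes, above that of mhc1uba in each library. The Z lineage class I genes mhc1zba, mhc1zda and mhc1zja were at 1.36 ± 0.68, 1.499 ± 0.68 and 0.87 ± 0.56, each without overlap. mhc1zba had 304 and 212 CPM in homozygotes and 155 and 45.2 CPM in heterozygotes. mhc1laa, of the L lineage, was at -0.02 ± 0.83 with overlapping libraries. Counts of near-identical class I genes can be split between copies, so each single value is uncertain.

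The light chain copy b2ml was at 1107 and 819 CPM in homozygotes and 744 and 455 CPM in heterozygotes (0.68 ± 0.56). The peptide-trimming aminopeptidase genes erap2 and erap1b were at 1.04 ± 0.36 and 0.81 ± 0.33, both without overlap. erap2 had 41.3 and 34.8 CPM in homozygotes and 21.5 and 15.4 CPM in heterozygotes. lnpep, a related aminopeptidase gene, was at 0.35 ± 0.63, and hm13, the signal peptide peptidase gene, at -0.54 ± 0.36. psme2, a subunit gene of the interferon-inducible proteasome activator, was at 0.87 ± 0.44, with 128 and 134 CPM in homozygotes and 91.8 and 51.9 CPM in heterozygotes, while its partner psme1 was at -0.04 ± 0.43. psmb10, which lies between psmb8a and psmb12, was at 89.6 and 79.4 CPM in homozygotes and 78.2 and 46.5 CPM in heterozygotes (0.44 ± 0.41).

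The general chaperones that also serve class I folding were not on the higher side. pdia3, a thiol oxidoreductase of the loading complex, was at -0.05 ± 0.52, and canx, the calnexin gene, at -0.22 ± 0.44. The calreticulin genes calr and calr3b were at -0.87 ± 0.55 and -0.96 ± 0.40, with calr3b at 96.0 and 68.5 CPM in homozygotes and 161 and 158 CPM in heterozygotes. The table assigns exons on 2 chromosomes to calr, so its value may join gene copies. abcb9, a lysosomal peptide transporter gene related to TAP, was at -0.69 ± 0.54.

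**Figure D4:**
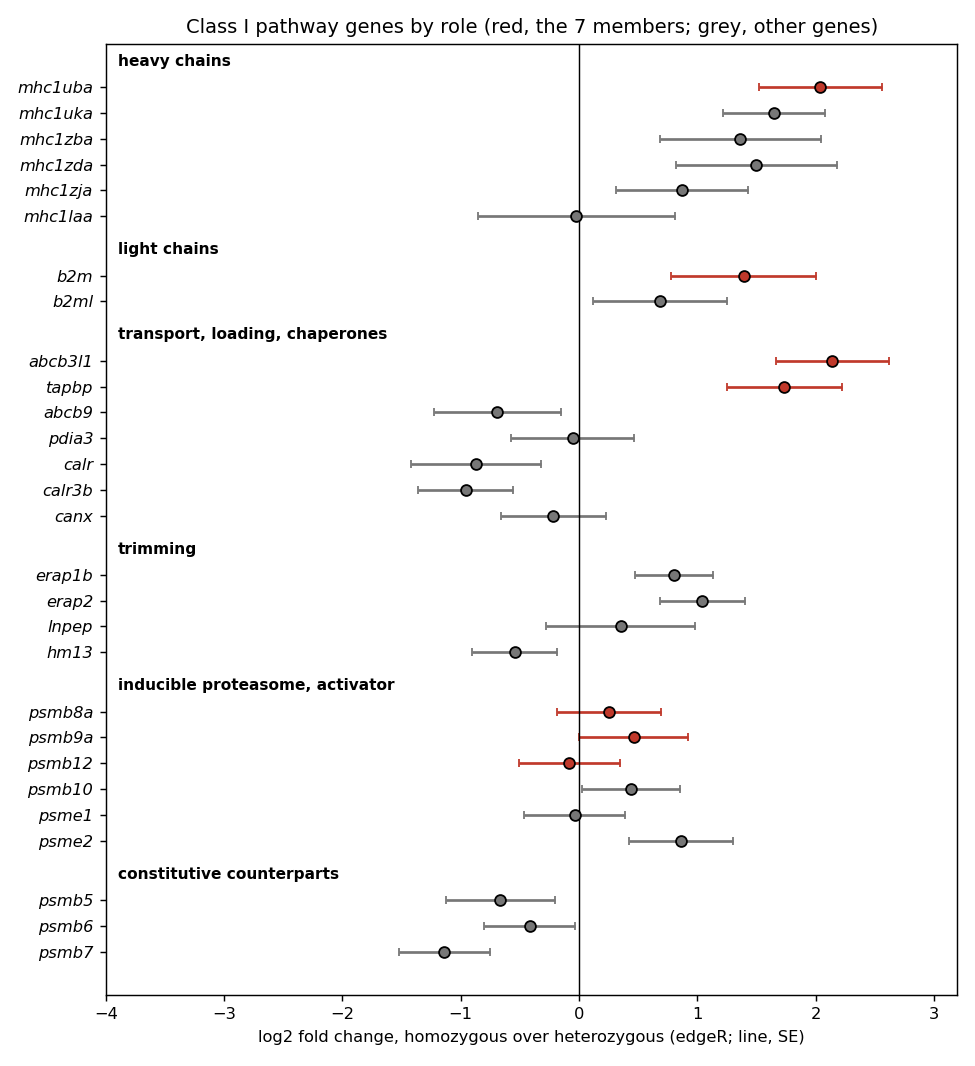
Log2 fold change, homozygous over heterozygous, with its SE (lines) for the 7 members (red) and the other tested genes of the pathway and psmb5, psmb6 and psmb7 (grey), grouped by role. Heavy chains except mhc1laa, light chains and the members of the transport and loading group are right of 0, and chaperones and constitutive subunits are left of it.

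6 of the 7 members lie within 92.7 kb of chromosome 19, from tapbp to abcb3l1, together with psmb10 and most exons of mhc1uka. In order along the span, tapbp, mhc1uka and mhc1uba come first, then psmb8a, psmb10, psmb12 and psmb9a, then abcb3l1. The groups overlapped for psmb8a, psmb12 and psmb9a and did not overlap for the other genes of this order, psmb10 included. abcb3l1, at 2.14 ± 0.48, thus follows 4 proteasome genes at -0.08 to 0.46. Within 100 kb outside the span, with a mean of at least 1 CPM, the transcriptional regulator genes daxx and brd2a were at -0.35 ± 0.55 and -0.56 ± 0.40, znf384l, a zinc finger gene, at 0.78 ± 0.66 and hsd17b8, a steroid dehydrogenase gene, at -1.10 ± 0.47. Both homozygous libraries were above both heterozygous ones for znf384l, against 19.9% of all tested genes. They were below for brd2a and hsd17b8, against 19.3%. mhc1uka has 1 of its 12 annotated exons far from the others, beyond hsd17b8. On chromosome 4 the neighbours of b2m were at -0.44 ± 0.63 (mgst1.1), -0.47 ± 0.68 (mgst1.2), 0.45 ± 0.44 (dera), 0.42 ± 0.68 (hmga2) and 0.78 ± 0.33 (msrb3). msrb3, a methionine sulfoxide reductase gene, was the 1 of these 5 whose groups did not overlap. Its homozygous libraries were both above, as for 19.9% of all tested genes. The class I region of zebrafish is known to exist as divergent haplotypes that differ in sequence and gene content, and reads of a haplotype unlike the reference may not be counted. The haplotypes of these fish are not given in the sources used here, and their part in the values was not tested.

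**Figure D5:**
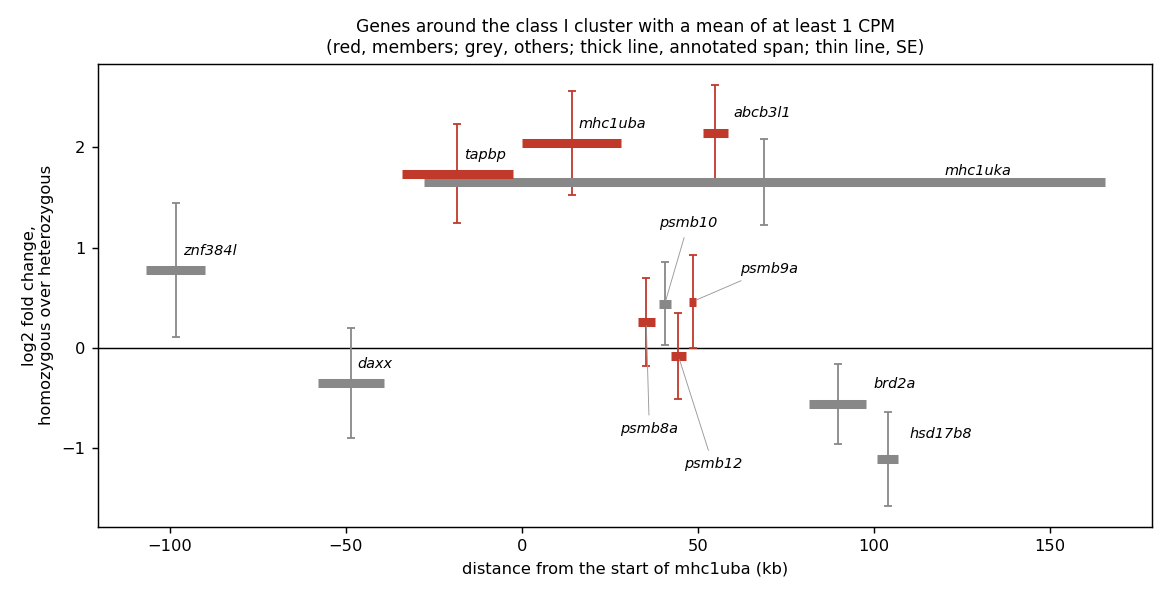
Log2 fold change, homozygous over heterozygous, of genes on chromosome 19 with a mean of at least 1 CPM against their distance from the start of mhc1uba in kb; thick lines are annotated spans and thin lines the SE, with members in red and other genes in grey; the long line of mhc1uka reaches to its single far exon. tapbp, mhc1uka, mhc1uba and abcb3l1 lie between 1.65 and 2.14, and the 4 proteasome genes between mhc1uba and abcb3l1 between -0.08 and 0.46.

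Class I genes are classical targets of interferon signalling, and irf1b encodes a factor of the family that binds their promoters. Of 25 tested interferon response genes, 22 had a positive log2 fold change, with a median of 0.58, where 46.7% of all tested genes were positive. Both homozygous libraries were above both heterozygous ones for 11 of the 25, against 19.9% of all tested genes, and below for 1, against 19.3%, and edgeR called 0. DESeq2's Wald test called 1 of the 25, irf1b (adjusted p = 0.00127), where it called 0.742% of all genes given an adjusted p. The 3 with the smallest unadjusted p were irf1b, crfb17, an interferon gamma receptor gene, and eif2ak2, an antiviral kinase gene. irf1b had 126 and 74.4 CPM in homozygotes and 13.1 and 19.8 CPM in heterozygotes (2.60 ± 0.46, SE). Like abcb3l1 and b2m, it was highest in homozygous replicate 1. crfb17 and eif2ak2, like mhc1uba and tapbp, were highest in homozygous replicate 2. The part of these interferon response genes in the class I values was not tested. crfb17 had 14.4 and 17.1 CPM in homozygotes and 5.97 and 6.35 CPM in heterozygotes (1.35 ± 0.39, SE). eif2ak2 had 2.67 and 6.74 CPM in homozygotes and 1.19 and 1.31 CPM in heterozygotes (1.90 ± 0.76). The interferon gamma genes themselves, named after their values were seen, were at the limit of detection. ifng1-1 had 3 and 1 counts in homozygotes and 0 in both heterozygous libraries, and ifng1-2 had 0 counts in all 4 libraries. A count of 0 allows up to 0.444 and 0.277 CPM in the homozygous and 0.512 and 0.328 CPM in the heterozygous libraries.

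Markers of immune and other cells were read beside the class I genes, and their part in the class I values was not tested. edgeR called 0 genes of these lists, and 46.7% of all tested genes had a positive log2 fold change. DESeq2's Wald test called 1 T and NK, 4 enterocyte, 3 pancreas and 4 immediate early and stress genes, and 0 of the other lists. It called 0.742% of all genes given an adjusted p. In bulk tissue, more cells of a type and more RNA per cell cannot be told apart. The summed level of 23 T and NK lymphocyte genes was 310 and 132 CPM in homozygotes and 35.3 and 87.4 CPM in heterozygotes, with 15 of 16 tested genes positive. rag1 was at 0 in all 4 libraries. Of the tested genes, zap70, ccr7 and foxp3a were at 0 in heterozygous replicate 1, as were the untested cd247l, si:rp71-40n14.1, tbx21 and eomesa. All 7 pan-leukocyte genes were positive, with summed levels of 524 and 323 CPM in homozygotes and 314 and 200 CPM in heterozygotes. Both homozygous libraries were above both heterozygous ones for 2 of these 7 and 12 of the 16 T and NK genes, against 19.9% of all tested genes. They were below for 0 of either list, against 19.3%. Of 5 B lymphocyte genes 1 was tested, and they summed to 14.96 and 10.5 CPM in homozygotes and 3.58 and 3.72 CPM in heterozygotes. Of 8 tested neutrophil genes 7 were positive, at 702 and 516 CPM in homozygotes and 478 and 277 CPM in heterozygotes. Most of that sum was cebpb, at 463 and 334 CPM in homozygotes and 334 and 197 CPM in heterozygotes. For 4 of the 8 both homozygous libraries were above both heterozygous ones, against 19.9% of all tested genes, and for 0 below. Mononuclear phagocyte genes went both ways, 8 positive and 11 negative, at 631 and 793 CPM in homozygotes and 980 and 1468 CPM in heterozygotes. The largest part of that sum in each library was grn1, at 149 and 418 CPM in homozygotes and 625 and 889 CPM in heterozygotes. Apart from grn1 the summed levels of the groups overlapped. Of the 19 tested, 4 had both homozygous libraries above both heterozygous ones and 9 had both below. At an unadjusted p under 0.05 edgeR had 7 of them lower and 0 higher, against 2.82% and 3.65% of all tested genes. The 7 were c1qa, c1qb, c1qc, csf1ra, ccl34b.1, havcr1 and grn2, with log2 fold changes from -1.15 (grn2) to -7.24 (ccl34b.1). Apart from grn2 none of the 7 exceeded 7.99 CPM in any library. Immediate early and stress genes, which also respond to tissue handling, were positive for 14 of 18, at 2736 and 1734 CPM in homozygotes and 1271 and 1472 CPM in heterozygotes. The 3 of them with the smallest unadjusted p were the AP-1 genes jund and junbb and the chaperone gene dnajb1b, at 2.16, 1.94 and 1.51 on the log2 scale. Of the 18 tested stress genes, 12 had both homozygous libraries above both heterozygous ones and 3 had both below. Of 20 tested enterocyte genes 15 were positive, and 8 had both homozygous libraries above both heterozygous ones and 1 had both below. Their summed level was 77450 and 91042 CPM in homozygotes and 125802 and 43538 CPM in heterozygotes, so those groups overlapped. The 4 enterocyte genes that DESeq2 called went both ways. In edgeR slc6a19a.1, slc15a1b and mep1b were at 2.24, 2.08 and 1.80 on the log2 scale, and fabp6 was at -2.21. All 27 tested pancreas genes were negative, with 46659 and 4624 CPM in homozygotes and 17955 and 419462 CPM in heterozygotes. Both homozygous libraries were below both heterozygous ones for 3 of these genes and above for 0. With the pancreas list left out of the table, the median of the 7 members was 1.42. irf8 itself had 3.70 and 2.31 CPM in homozygotes and 5.12 and 5.47 CPM in heterozygotes (-0.82 ± 0.58).

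By the distance of centred log2 CPM over the 4 libraries, the genes outside the list nearest to mhc1uba were rnf152, a ubiquitin ligase gene (distance 0.18), si:ch211-225b11.1 (0.18), the intestinal peptide transporter gene slc15a1b (0.26), nr3c2, the mineralocorticoid receptor gene (0.31), and ugt5c3, a glucuronosyltransferase gene (0.32). All 5 were highest in homozygous replicate 2 and lowest in heterozygous replicate 2, as mhc1uba was. slc15a1b had 740 and 1249 CPM in homozygotes and 276 and 196 CPM in heterozygotes. Among the members tapbp was closest to mhc1uba, at 0.42 and 12th of all tested genes, and b2m and abcb3l1 were far off, at 1.404 and 1.62. With 4 libraries many genes share a profile, and no test was made of this likeness.

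The authors also deposited a table of 76 genes with fold changes. None of the 10 listed class I genes, and 0 of the 22 further class I pathway genes, appear by name in the authors' deposited table. Of the other lists it holds, by name, irf1b of the interferon response list, with a deposited log2 fold change of 2.70. It also holds klf2a of the stress list (-2.82) and c1qc of the mononuclear phagocyte list (-4.26). From the pancreas list it holds ins (-14.6), gcga (-3.68) and gcgb (-4.57).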

How the data were processed

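Whole-gut messenger RNA of 2 homozygous and 2 heterozygous irf8 st95 zebrafish was compared. The authors deposited raw counts of read pairs for each gene, made per the file headers with featureCounts 1.5.2, with pairs counted on the reverse strand (setting 2) over exons of a danRer10 annotation. No source used here names the aligner. Other tools named in the submitters' processing notes are DESeq2 and R 3.3.1. Exon length, another column of that table, gave RPKM. The authors' deposited table of 76 genes holds log2 fold changes, a signed fold score, a group mean score and p-values, and was searched only for the listed genes.

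Low genes were removed with filterByExpr (minimum count 10, total 15), leaving 9701. Counts were scaled by TMM and tested in edgeR 4.0.16 under R 4.3.3 (quasi-likelihood F test, genotype alone in the model), adjusted by Benjamini-Hochberg and called at 0.05. SE are those implied by the F statistic, and 95% intervals use its degrees of freedom. DESeq2 1.42.0 was an alternative. The fit was tested on simulated data. With 2 fish a group, p-values set a difference only against the spread between these fish. edgeR moderates each gene's spread toward that of all tested genes. The members and lists were chosen with earlier results of these data known. Named genes are the members, all tested genes of the class I list, psmb5 to psmb7, neighbours within 100 kb with a mean of at least 1 CPM, the 3 genes of smallest unadjusted p in each of the constitutive proteasome, interferon and immediate early lists, and the 5 nearest mhc1uba in log2 CPM (prior count 2). Cell type marker lists are given whole. Genes of them named at 0, at an unadjusted p under 0.05, as DESeq2 calls or for their part in a sum were chosen after their values were seen. So were the interferon gamma genes and si:ch211-51f10.1. All genes of the lists that the authors' deposited table holds by name are given.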

Additional observations from a re-analysis of the deposited data

How the results depend on the processing

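The log2 fold changes of mhc1uba, abcb3l1, tapbp and b2m stayed positive under all 10 alternatives each. Leaving out 1 library at a time gave 1.39 to 2.51 for mhc1uba (lowest without homozygous replicate 2), 1.51 to 2.59 for abcb3l1 and 1.01 to 1.83 for b2m (both lowest without homozygous replicate 1) and 1.23 to 2.13 for tapbp (lowest without homozygous replicate 2). The same ranges were -0.14 to 0.82 for psmb8a, -0.0037 to 1.16 for psmb9a and -0.48 to 0.48 for psmb12. Besides the reversals given above, psmb12 turned to 0.04 without homozygous replicate 2, and the cause was not tested. The number of members with both homozygous libraries above ranged from 4 to 7 with a library left out, and was 7 without heterozygous replicate 1, where 34.8% of all genes were above. It was 5 with all 4 libraries and the pancreas list left out, where 21% of all genes were above. The number below ranged from 0 to 2, and was 2 without heterozygous replicate 2, where 36.8% of all genes were below and the median of all genes moved by 0.13. DESeq2's Wald test called 58 genes and 1 member (abcb3l1, 2.14, adjusted p = 0.0387), against 0 by edgeR, which had 628 genes at an unadjusted p under 0.05. edgeR without 1 library called 0 to 45 genes, the highest without heterozygous replicate 1, and 0 members. At an adjusted p of 0.1 edgeR still called 0 genes. Same-numbered libraries did not deviate together (r = 0.06 over 9701 genes). With 2 libraries a group this cannot show whether the numbers pair the fish, and the labels do not say. With the replicate number as a block edgeR again called 0 genes, and the log2 fold changes were 1.97 for mhc1uba and 2.04 for abcb3l1. The ratios to constitutive subunits stayed positive in all 6 alternatives each, at 0.62 to 1.301 on the log2 scale. DESeq2 size factors, no filter and a mean of at least 1 CPM changed no direction and no call.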
